A study of Mus musculus with 2 samples.

Results

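The cells described here are the dormancy-marker stem cells of mouse bone marrow, 651 of 18029 cells (3.61%) in 2 single-cell RNA libraries. A cell belonged to the gate when at least 1 UMI (1 distinct RNA molecule) was counted for 3 or more of the 6 genes Meg3, Cdkn1c, Pdzk1ip1, Mmrn1, Procr and Clec1a. It also had to stay under 20 UMIs of Mpo, 3 of Dntt, 3 of Pf4 and 5 of Car1, genes of committed myeloid, lymphoid, megakaryocyte and erythroid cells. All cells had been sorted as LSK, lineage-negative cells with Sca-1 and high Kit, from femur and tibia after red cells were lysed and lineage-positive cells removed with magnetic beads. They came from young mice of 2 genotypes, wild type (WT) and the genotype the labels call IκB-negative and the deposited cell table calls IkBKO. Which IκB genes were altered, in which cells and by what allele, the strain, the age in weeks, any treatment and the number of mice per pool are not given in the labels. In each of 2 replicates, 30000 cells of each genotype were tagged with hashing antibodies and sequenced together as 1 library. The gate held 101 WT and 51 IkBKO cells in replicate 1 and 305 WT and 194 IkBKO cells in replicate 2.

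Haematopoietic stem cells are mostly at rest, divide rarely and give rise to every blood lineage. The genes of the gate are known from the most dormant of them. Cdkn1c encodes the cell cycle inhibitor p57, Meg3 is an imprinted long noncoding RNA, and Procr encodes the surface receptor EPCR used to sort stem cells. Pdzk1ip1, Mmrn1 and Clec1a are RNAs enriched in the same compartment. IκB proteins bind NF-κB dimers and keep them out of the nucleus. NF-κB and the interferons are both known to change how stem cells in the marrow divide and persist.

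Counts were summed over the gate cells of each genotype and replicate into 4 pools of 468375 (IkBKO replicate 1), 1031806 (WT replicate 1), 1660603 (IkBKO replicate 2) and 2437970 UMIs (WT replicate 2). Median UMIs per gate cell were 5997 to 8661, against 7032 to 13808 in the other cells of the same pools. Levels are given as CPM, the UMIs of a gene over 1e6 UMIs of its pool. Folds are log2 of IkBKO over WT ± SE from edgeR's quasi-likelihood test with the library as a block, and a gene was called at a Benjamini-Hochberg adjusted p of at most 0.05. The labels do not say that replicates came from separate mice, so a p-value covers only the variation among the 4 pools, which may be technical. The libraries shared 77 barcodes, 39 of them passing in both, and no barcode was a gate cell in both.

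Most gate cells only just met the rule. Of the 651, 494 (75.9%) had UMIs of exactly 3 marker genes, 122 of 4, 32 of 5 and 3 of all 6. Pdzk1ip1 was the most common marker, with a UMI in 92.6% of gate cells and 25.5% of the others. Procr was seen in 67.1% and 11.0%, Mmrn1 in 66.1% and 7.99%, and Cdkn1c in 57.1% and 6.43%. Meg3 and Clec1a were rarer, in 23.8% and 23.2% of gate cells against 0.794% and 1.06% of the others. The commonest set was Pdzk1ip1, Mmrn1 and Procr, all present in 227 cells. A further 116 cells had 3 marker genes but were kept out by a limit, 83 of them by Pf4, 25 by Dntt, 10 by Mpo and 5 by Car1. The cells were chosen by these values, which are a description.

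The gate took a smaller share of IkBKO than of WT cells in both libraries. In replicate 1 it held 101 of 3721 WT cells, or 2.71% (95% Wilson interval 2.24 to 3.29%), and 51 of 3962 IkBKO cells, or 1.29% (0.980 to 1.69%). In replicate 2 it held 305 of 4963 WT cells, or 6.15% (5.51 to 6.85%), and 194 of 5383 IkBKO cells, or 3.60% (3.14 to 4.14%). The IkBKO share was 0.474 and 0.586 of the WT share, and the intervals, which cover counting error only, did not overlap within either library. The replicates differed as well, and the IkBKO share of replicate 2 lay above the WT share of replicate 1. With 2 pools a genotype no exact permutation test can reach a p of 0.05, so none is given.

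**Figure D1:**
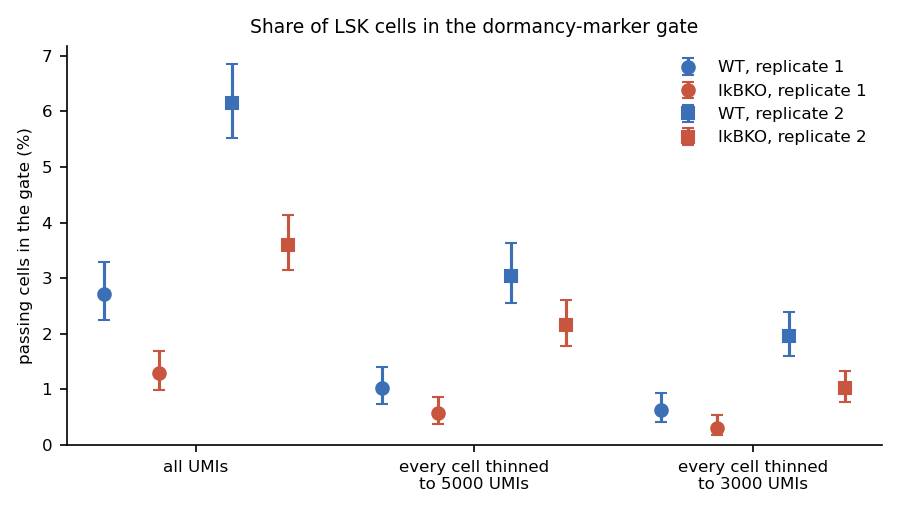
Share of passing LSK cells in the dormancy-marker gate (%, vertical axis) for WT and IkBKO cells of each replicate, on all UMIs and after thinning every cell to 5000 or 3000 UMIs. Bars are 95% Wilson intervals of counting error. The IkBKO point lies below the WT point of its replicate at every depth, at 0.474 and 0.586 of it on all UMIs.

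IkBKO cells carried more UMIs per cell, which makes a marker easier to see, so the rule was also applied at equal depth. Each cell was thinned to 5000 UMIs, which left out 188 WT and 102 IkBKO cells of replicate 1 and 956 and 503 of replicate 2. The shares were then 1.02% (WT) and 0.570% (IkBKO) in replicate 1 and 3.04% and 2.15% in replicate 2, ratios of 0.559 and 0.707. At this depth the intervals of the genotypes overlapped in both replicates. At 3000 UMIs the ratios were 0.489 and 0.520, and the intervals overlapped in replicate 1 but not in replicate 2. The share is of all passing cells, and a smaller part of the IkBKO cells was under the limits. Outside the gate, 2377 of 3620 WT and 1677 of 3911 IkBKO cells of replicate 1 were under them. In replicate 2 they were 3469 of 4658 and 3392 of 5189. The share also depends on how much marker RNA each cell holds. Fewer cells of this kind and less marker RNA per cell cannot be told apart from a detection rule. Among cells under the limits, 3.03% (WT) and 2.49% (IkBKO) of replicate 1 had exactly 3 marker genes, and 0.888% and 0.405% had 4. In replicate 2 these were 5.99% and 4.18%, then 1.56% and 0.948%. The part that cells over the limits have in the ratios was not tested.

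A readout that the rule did not use was available in replicate 1, where antibody tags counted 3 surface proteins. CD48, a protein absent from the most primitive stem cells and carried by most progenitors, had a median of 299 tag counts in WT gate cells against 480 in the other WT cells. In IkBKO cells the medians were 290 and 570. Of the gate cells, 65.3% of WT and 80.4% of IkBKO lay below the lower quartile of CD48 over their own genotype, where 25% of all cells lie by construction. CD150, the SLAM protein that marks long-term stem cells, had medians of 118 (WT) and 119 (IkBKO) in the gate and 110.0 and 108 outside it. The share above the upper quartile of CD150 was 40.6% in WT and 39.2% in IkBKO gate cells. The Flt3 tag, a receptor of lymphoid-primed progenitors, had medians of 126 and 124 in the gate and 126 and 121 outside. The hashtag of the cell's own genotype was also higher in the gate, at 579 against 476 in WT and 1123 against 920 in IkBKO.

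**Figure D2:**
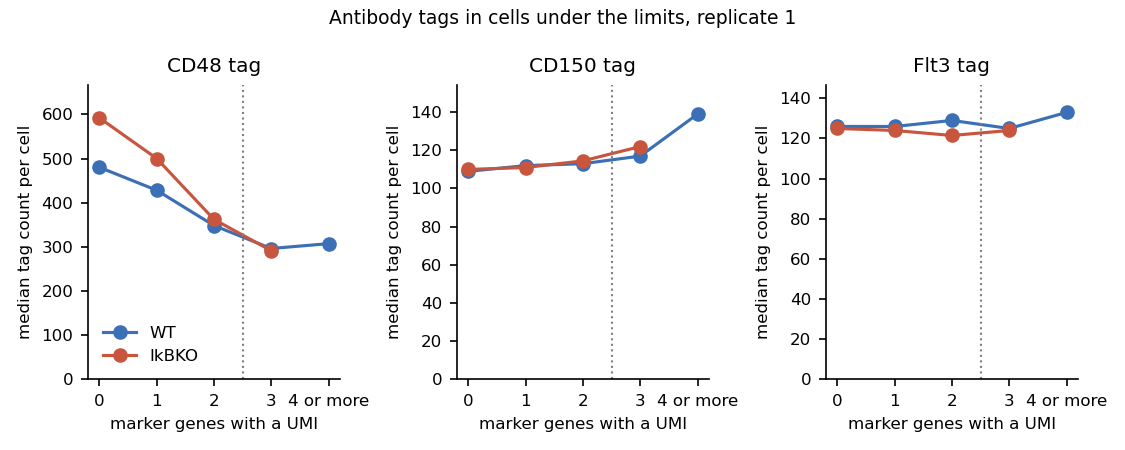
Median antibody tag count per cell (vertical axis) of CD48, CD150 and Flt3 in replicate 1, for cells under the limits on Mpo, Dntt, Pf4 and Car1, by how many of the 6 marker genes had a UMI. The dotted line is the edge of the gate, and points with under 10 cells are not drawn. The CD48 median was 480 in WT and 592 in IkBKO cells with 0 marker genes, and 296 and 291 with 3.

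Hlf and Mllt3 climbed below the threshold of 3 marker genes as well as across it. Hlf, a transcription factor of stem cells, stood at 213, 326, 466, 587 and 636 CPM in WT cells of replicate 1 with 0, 1, 2, 3 and 4 or more marker genes. In WT cells of replicate 2 it stood at 439.6, 589, 732, 853 and 829 CPM. Cells just outside the gate, with 2 marker genes, thus lay between those with 1 and those with 3 for Hlf. Mllt3, another regulator of stem cell maintenance, stood at 32.4, 53.0, 92.0, 149.9 and 222 CPM in WT and at 35.4, 64.9, 116, 197 and 262 CPM in IkBKO cells of replicate 2. Cd48 RNA ran the other way, at 129.6, 92.0, 65.7, 33.1 and 16.7 CPM in the same WT cells. In IkBKO cells of replicate 1, Hoxb5 and Fgd5 instead went up between 2 and 3 marker genes. Hoxb5 was there at 1.66, 1.48, 1.43 and 18.3 CPM with 0, 1, 2 and 3 marker genes, on 2 UMIs at 2 and 7 UMIs at 3. Fgd5 was at 1.85, 3.88, 3.59 and 15.7 CPM, on 5 and 6 UMIs. At each marker number up to 3, Hlf was lower in IkBKO than in WT cells of the same library.

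**Figure D3:**
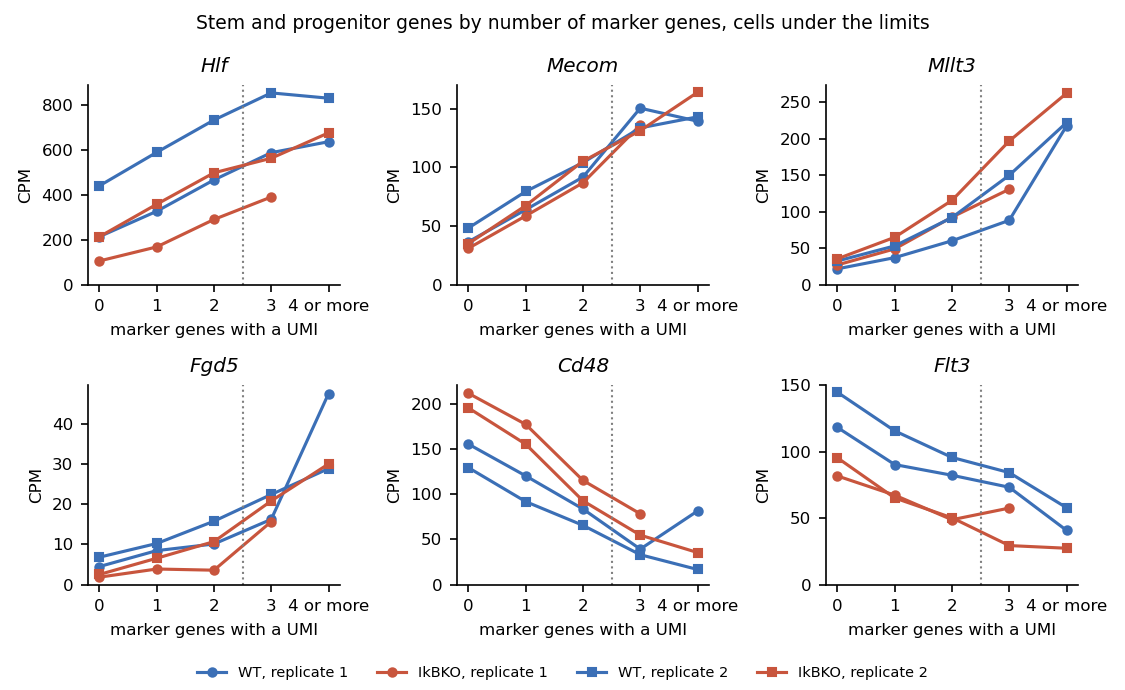
Level (CPM, vertical axis) of 6 genes in summed cells by the number of marker genes with a UMI, for each genotype and replicate, among cells under the limits. The dotted line is the edge of the gate, and points with under 10 cells are not drawn. Hlf, Mecom, Mllt3 and Fgd5 climb and Flt3 goes down from 0 to 2 marker genes, except Fgd5 in IkBKO cells of replicate 1 (3.88 and 3.59 CPM with 1 and 2).

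Set against all other LSK cells, the gate had more RNA of stem cell genes and less of progenitor and cell cycle genes. The rule chose cells on this same contrast, so the values are a description. Of 13265 genes other than those of the rule, 3908 (29.5%) were past the threshold, 1783 higher (13.4%) and 2125 lower (16.0%), with a median of 0.01 log2 units. Among 26 stem cell regulators 19 were higher and none lower, with a median of 0.72. In the order WT and IkBKO of replicate 1, then WT and IkBKO of replicate 2, Mllt3 was at 125, 117, 169 and 211 CPM in the gate against 25.3, 19.5, 43.7 and 45.6 CPM in the other cells. Mecom, the zinc finger factor EVI1, was at 147, 137, 136 and 138 CPM in the gate against 35.7, 16.3, 57.4 and 40.3 CPM in the other cells. Hoxb5, used as a reporter of long-term stem cells, was at 12.6, 19.2, 11.9 and 18.1 CPM in the gate against 1.57, 0.722, 2.32 and 2.70 CPM in the other cells. In each of these genes all 4 gate pools lay above all 4 pools of other cells. Hlf was 1.52 log2 units higher without passing the threshold.

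Of 32 genes of the stem cell surface and adhesion, 19 were higher and 6 lower. The guanine exchange factor Fgd5 was at 25.2, 14.9, 24.2 and 22.9 CPM in the gate against 4.32, 0.834, 7.63 and 3.46 CPM in the other cells. Esam, an adhesion molecule, was 1.86 log2 units higher, Slamf1, which encodes CD150, 1.62 and the angiopoietin receptor Tek 1.55. Cd48 was 1.73 log2 units lower, at 51.4, 81.1, 28.7 and 50.6 CPM in the gate against 138, 168, 109.9 and 159 CPM in the other cells. Its tag, read in replicate 1, was also lower in the gate in both genotypes. Within the gate of that replicate the RNA was higher in IkBKO, while the tag medians were 299 (WT) and 290 (IkBKO). Cd34 and Flt3, which mark cells leaving the dormant state, were at −0.40 and −1.06 log2 units. The genes with the highest folds at 20 CPM or more were Tgm2, Lhcgr, Abcg3, Fgd5, Wfdc2 and Socs2. Tgm2, the cross-linking enzyme transglutaminase, was at 45.6, 47.0, 24.2 and 34.3 CPM in the gate against 4.71, 3.03, 4.18 and 7.26 CPM in the other cells. The neutrophil protease Elane was the lowest of these, at −6.72 log2 units.

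Cell cycle genes were lower in the gate as a group, 31 of 32 G1/S genes with a median of −0.71 and 30 of 42 G2/M genes with a median of −0.54, and none was higher. Among cells under the same limits, IkBKO cells of replicate 2 did not show this for the summed G2/M genes, at 4643, 4709 and 4308 CPM with 0, 1 and 2 marker genes and 4884 and 5289 CPM with 3 and 4 or more. IkBKO cells of replicate 1 were at 3910, 3770 and 3605 CPM and then 2310 with 3 and 7447 with 4 or more, the last from 8 cells. WT cells went from 3306 to 2193 CPM in replicate 1 and from 4212 to 2732 CPM in replicate 2. Myeloid priming genes were lower in 15 of 23 (median −1.84) and lymphoid priming genes in 12 of 18 (median −1.21), with 1 higher. Glycolysis genes were lower in 9 of 14 and higher in 2. Of 25 genes tied to quiescence and retinoid signalling, 7 were higher and 3 lower. Txnip, an inhibitor of thioredoxin and glucose uptake, was at 559, 450.5, 601 and 631 CPM in the gate against 224, 115, 309 and 239 CPM in the other cells. Cyp26b1, which degrades retinoic acid, was at 13.6, 2.13, 3.69 and 8.43 CPM in the gate against 0.188, 0.016, 0.302 and 0.0839 CPM in the other cells. Its 2.13 CPM in the IkBKO gate pool of replicate 1 lay under the level of 3 UMIs there, 6.41 CPM. Cdkn1a, the inhibitor p21, was lower at −1.60 log2 units.

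Between genotypes within the gate, 152 of 9620 genes were called (1.58%), 101 higher in IkBKO (1.05%) and 51 lower (0.53%), with a median of −0.0049 log2 units over all genes tested. At an unadjusted p under 0.05 in edgeR, 531 of the 9620 were higher and 413 lower, the background for such counts in the lists below. Leaving out each of the 4 pools in turn, 16 of the 101 and 8 of the 51 stayed called every time. The fits with a pool left out also had no library block. A call lost in them cannot be laid to the pool alone. With all 4 pools and no block, 83 higher and 30 lower genes were called. Of the 152 genes, 101 were also called in the other LSK cells, where 1711 of 14694 (11.6%) passed, and 149 had the same direction there. DESeq2 called 10 higher and 9 lower genes, with 82 higher and 42 lower at an unadjusted p under 0.05. The labels name the altered family, so its genes come first.

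Nfkbie, which encodes IκBε, was the only one of 13 tested IκB and NF-κB genes to be called, Nfkbid having too few counts to test. It was at 15.5 and 11.9 CPM in the WT pools and 0 and 3.01 CPM in the IkBKO pools (log2 −2.44 ± 0.61, adjusted p = 0.041, mm10 chromosome 17, 45555703 to 45563169). That rests on 16 and 29 UMIs in WT and 0 and 5 in IkBKO, and 0 of 468375 UMIs allows up to 6.41 CPM. Nfkbie was not called without WT replicate 1 (adjusted p = 0.21), WT replicate 2 (0.41) or IkBKO replicate 2 (0.17). Nfkbib, which encodes IκBβ, was at 12.6 and 12.7 CPM in the WT pools and 6.41 and 6.62 CPM in the IkBKO pools (adjusted p = 0.49), and Nfkbia, which encodes IκBα, at 79.5 and 108 CPM in the WT pools and 96.1 and 89.1 CPM in the IkBKO pools (adjusted p = 0.93). The libraries read 3′ ends, so a deletion elsewhere in a gene need not lower its count. The coactivator Bcl3 was at 12.6 and 3.69 CPM in the WT pools and 27.8 and 11.4 CPM in the IkBKO pools and the NF-κB subunit Relb at 7.75 and 8.61 CPM in the WT pools and 14.9 and 19.9 CPM in the IkBKO pools, and neither passed (adjusted p = 0.14 and 0.22). Of 26 NF-κB response genes 1 was higher, Psmb9, and none lower, with a median of −0.05.

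The GTPases that interferon-γ induces against intracellular microbes were the most shifted list of this comparison in median, at 1.34 log2 units over 16 genes. Of them 7 rose and none fell, and 14 were higher at an unadjusted p under 0.05. DESeq2 called 2. Summed, the 16 genes stood at 379 and 454 CPM in the WT pools against 1042 and 868 CPM in the IkBKO pools. Iigp1 was at 36.8 and 66.9 CPM in the WT pools and 177 and 181 CPM in the IkBKO pools (log2 1.69 ± 0.18, adjusted p = 4.0e-06). Igtp, which encodes Irgm3, was at 24.2 and 22.6 CPM in the WT pools and 70.5 and 60.2 CPM in the IkBKO pools (log2 1.45 ± 0.23, adjusted p = 0.00053, mm10 chromosome 11, 58199556 to 58207591). Gbp4 was at 3.88 and 4.92 CPM in the WT pools and 36.3 and 21.1 CPM in the IkBKO pools (log2 2.44 ± 0.41, adjusted p = 0.0011), with 4 and 12 UMIs in WT. In these genes both IkBKO pools lay above both WT pools, as in 95 of all 101 genes called higher. Gm4951 (1.91), Gbp5 (1.44), Gbp2 (1.39) and Gbp3 (1.30) were the other 4 called. Gbp2 was not called without WT replicate 2 (adjusted p = 0.078). Gbp3 was not called without WT replicate 1 (adjusted p = 0.055), WT replicate 2 (0.059) or IkBKO replicate 2 (0.19). Several of these genes have near-identical copies, and how reads of copies were assigned is not stated in the labels. Single cells showed the same order, with a median over cells of 3.34 UMIs of the list per 10000 UMIs in WT and 7.72 in IkBKO gate cells of replicate 1. The list was also higher in the gate than outside, 14 of 16 with a median of 0.98, and the genotype difference in the gate was not called different from that in other cells for any of the 16 (interaction, 8 pools, edgeR).

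Promoter sequences are shown for 4 genes that rose, because their start sites carry the letters that interferon- and NF-κB-activated factors bind. RefSeq windows of 300 bases (250 before to 50 after a start site, GRCm38.p6) were found for 7698 of the 9620 tested genes. They were searched on both strands for GAS (TTC, any 3 bases, GAA, an element of interferon-γ-induced genes), ISRE (GAAA, any 2 bases, GAAA, bound by IRF factors) and a κB motif (GGG, any 2 bases, TTTCC). These motifs share no position in the windows shown. Of all tested genes with a window 8.07% held GAS, 3.94% ISRE and 1.91% κB. Of the 72 genes that rose and had a window, 15 (20.8%), 10 (13.9%) and 9 (12.5%) did. Of 34 that fell, 3 held GAS (8.82%) and none ISRE or κB. Among 10 interferon-γ GTPases with a window, 6 held GAS, 9 ISRE and 1 κB. The 150 bases before each start site are printed 5′ to 3′ on the + strand with motif matches in capitals. Igtp (chr11:58199406-58199555) has GAS with its first base 45 bases before the start and ISRE 34 before. Gbp2 (chr3:142620513-142620662) has ISRE 59 before, read on the other strand. B2m (chr2:122147537-122147686), described with the MHC genes, has ISRE 139 and κB 126 before, the latter read on the other strand. Serpina3g (chr12:104235997-104236146) has κB 85 and GAS 33 before. A match is a description of letters and no evidence of binding.
Igtp: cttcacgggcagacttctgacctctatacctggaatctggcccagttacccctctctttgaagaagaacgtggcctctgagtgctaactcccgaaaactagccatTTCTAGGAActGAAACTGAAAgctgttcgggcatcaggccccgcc
Gbp2: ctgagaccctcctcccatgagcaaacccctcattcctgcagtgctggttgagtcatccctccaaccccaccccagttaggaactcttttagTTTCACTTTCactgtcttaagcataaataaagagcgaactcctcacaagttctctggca
B2m: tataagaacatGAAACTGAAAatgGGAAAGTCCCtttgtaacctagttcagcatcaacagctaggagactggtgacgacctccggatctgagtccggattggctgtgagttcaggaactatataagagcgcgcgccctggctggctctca
Serpina3g: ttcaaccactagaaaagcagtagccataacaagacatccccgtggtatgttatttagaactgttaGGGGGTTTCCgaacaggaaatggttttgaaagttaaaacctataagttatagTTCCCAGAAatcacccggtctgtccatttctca

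MHC class I genes, which display peptides to cytotoxic T cells, rose in 7 of 16 with none lower, and 12 were higher at an unadjusted p under 0.05. Their median was 0.38 log2 units and their sum 5108 and 5409 CPM in the WT pools against 7184 and 6976 CPM in the IkBKO pools. The nonclassical class I genes H2-Q7 and H2-Q6 changed most. H2-Q7 was at 270.4 and 293 CPM in the WT pools and 662 and 600.4 CPM in the IkBKO pools (log2 1.14 ± 0.11, adjusted p = 6.2e-07, mm10 chromosome 17, 35439155 to 35443773). H2-Q6 was at 91.1 and 99.7 CPM in the WT pools and 209 and 186 CPM in the IkBKO pools (log2 1.01 ± 0.15, adjusted p = 0.00033), and the 2 are close copies. B2m, the shared light chain, was at 1429 and 1471 CPM in the WT pools and 1892 and 1877 CPM in the IkBKO pools (log2 0.38 ± 0.07, adjusted p = 0.0021). The others were H2-K1 (0.35), the peptide transporter Tap1 (0.69), the immunoproteasome subunit Psmb9 (0.52) and H2-Q4 (0.57). With any 1 pool left out, only H2-Q7 and H2-Q6 stayed called, and B2m had an adjusted p of 0.65 to 1.00. Without the library block B2m had an adjusted p of 0.34. H2-K1, Tap1, Psmb9 and H2-Q4 were not called without WT replicate 1, WT replicate 2, IkBKO replicate 1 or IkBKO replicate 2, with adjusted p from 0.12 to 1.00.

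Few genes of the wider interferon-stimulated list were called. Of 26 tested genes 1 rose and none fell, with a median of 0.11 log2 units. The antiviral genes Isg15 (log2 −0.15 ± 0.34), Ifit1 (−0.08 ± 0.38) and Oas1a (0.07 ± 0.39) did not pass. Irf1, a factor that interferon-γ induces, was called at 53.3 and 54.1 CPM in the WT pools and 98.2 and 92.7 CPM in the IkBKO pools (log2 0.80 ± 0.18, adjusted p = 0.016), but not with any 1 pool left out (adjusted p = 0.064 to 0.41).

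The single gene that differed most among those of at least 20 CPM was Gdpd3, a glycerophosphodiester phosphodiesterase with lysophospholipase D activity (mm10 chromosome 7, 126766334 to 126775649). It was at 1.94 and 0.82 CPM in the WT pools and 87.5 and 86.7 CPM in the IkBKO pools (log2 6.12 ± 0.38, adjusted p = 3.2e-10). The WT pools held 2 UMIs each, so the ratio of IkBKO to WT was 45.2 (95% exact interval 11.7 to 385) in replicate 1 and 105.7 (28.7 to 881) in replicate 2. In replicate 1, 20 of 51 IkBKO gate cells had a UMI of Gdpd3, against 2 of 101 WT gate cells. In the other LSK cells it was at 3.61 and 1.33 CPM in the WT pools and 51.2 and 35.3 CPM in the IkBKO pools, and the genotype difference in the gate was not called larger (interaction log2 1.84 ± 0.64, adjusted p = 0.30). Gdpd3 and the gene model AA465934 were both low in WT gate cells. AA465934, chosen after its values were seen, was at 4.85 and 3.28 CPM in the WT pools and 124 and 97.0 CPM in the IkBKO pools.

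Serpina3g, a serine protease inhibitor of blood cells induced by interferon-γ, was at 111 and 147 CPM in the WT pools and 391 and 329 CPM in the IkBKO pools (log2 1.42 ± 0.15, adjusted p = 2.3e-06). Its neighbour Serpina3f was at 2.91 and 3.69 CPM in the WT pools and 34.2 and 21.1 CPM in the IkBKO pools (log2 2.81 ± 0.43, adjusted p = 0.00046), with 3 and 9 UMIs in WT. Both are members of a cluster of near copies, and both stayed called with each pool left out. Socs2, a brake on cytokine receptors that signal through STAT5, was at 24.2 and 29.1 CPM in the WT pools and 68.3 and 87.3 CPM in the IkBKO pools (log2 1.55 ± 0.21, adjusted p = 0.00010) and also stayed called each time. Socs2 and Serpina3g were named after their values were seen. Nupr1, a stress-induced chromatin protein known to rise in aged stem cells, was at 8.72 and 7.38 CPM in the WT pools and 25.6 and 37.3 CPM in the IkBKO pools (log2 2.09 ± 0.35, adjusted p = 0.0010). Nupr1 was not called without IkBKO replicate 2 (adjusted p = 0.35). The immunity-associated GTPase Gimap4 rose by 2.14 ± 0.48 in the fit, but its 2 libraries differed. It was at 10.7 and 3.28 CPM in the WT pools and 12.8 and 30.1 CPM in the IkBKO pools, and the ratio in replicate 1 was 1.20 (exact interval 0.365 to 3.54). Gimap4 was not called without WT replicate 2 (adjusted p = 0.63) or IkBKO replicate 2 (0.91). Ly6a, which encodes Sca-1 and was part of the sort, was at 127 and 149 CPM in the WT pools and 305 and 231 CPM in the IkBKO pools (log2 0.88 ± 0.15, adjusted p = 0.0013). Ly6a was not called without WT replicate 1 (adjusted p = 0.062).

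**Figure D4:**
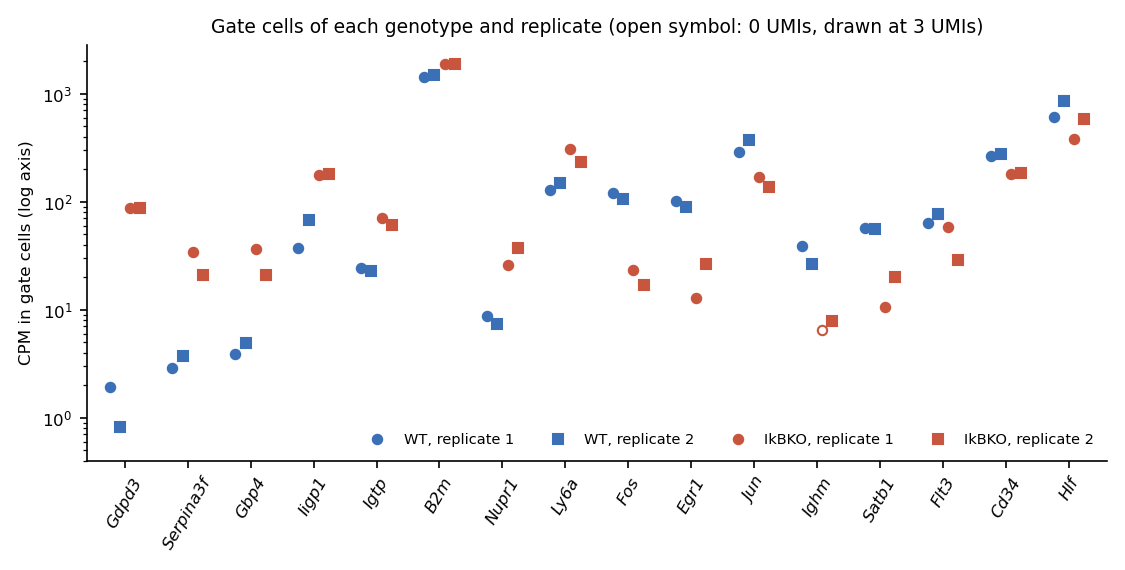
Level of 16 genes (CPM, log axis) in the 4 gate pools, circles for replicate 1 and squares for replicate 2, blue for WT and red for IkBKO. The open symbol, Ighm in IkBKO replicate 1, stands for 0 UMIs and is drawn at the level of 3 UMIs. Both red points lie above both blue ones from Gdpd3 to Ly6a and below them from Fos to Hlf, with Gdpd3 at 1.94 and 0.820 CPM in the WT pools and 87.5 and 86.7 CPM in the IkBKO pools.

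Immediate-early genes, which cells switch on within minutes of a stimulus, fell in 8 of 16 with none higher, and 13 were lower at an unadjusted p under 0.05. Their median was −0.75 log2 units and DESeq2 called 3 lower. Fos was at 120.2 and 105 CPM in the WT pools and 23.5 and 16.9 CPM in the IkBKO pools (log2 −2.55 ± 0.22, adjusted p = 1.7e-07, mm10 chromosome 12, 85473890 to 85477273). Egr1, a zinc finger factor tied to stem cell quiescence, was at 101 and 89.0 CPM in the WT pools and 12.8 and 26.5 CPM in the IkBKO pools (log2 −2.02 ± 0.23, adjusted p = 1.2e-05). Jun was at 286 and 369 CPM in the WT pools and 169 and 135 CPM in the IkBKO pools (log2 −1.18 ± 0.15, adjusted p = 4.4e-05). In all 3 the IkBKO pools lay below the WT pools, as in 49 of all 51 genes called lower. Fosb (−1.12), Klf6 (−0.97), the RNA-decay factor Zfp36 (−0.95), Ier2 (−0.80) and Jund (−0.70) were the other 5. Fos, Egr1, Jun and Fosb stayed called with each pool left out. Klf6 was not called without WT replicate 1 (adjusted p = 0.38), IkBKO replicate 1 (0.053) or IkBKO replicate 2 (0.38). Zfp36 was not called without WT replicate 1 (adjusted p = 0.077), WT replicate 2 (0.71) or IkBKO replicate 2 (0.85). Ier2 was not called without WT replicate 1 (adjusted p = 0.10), WT replicate 2 (0.39) or IkBKO replicate 2 (0.41). Jund was not called without WT replicate 2 (adjusted p = 0.91) or IkBKO replicate 2 (0.38). Summed over the list, the gate stood at 1564 and 1831 CPM in the WT pools against 961 and 912 CPM in the IkBKO pools. The other LSK cells stood at 1086 and 1566 CPM in the WT pools against 559.7 and 726 CPM in the IkBKO pools, so both IkBKO pools lay below both WT pools in either compartment. For Fosb the genotype difference was smaller in the gate than outside (interaction log2 0.94 ± 0.24, adjusted p = 0.030).

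Genes of lymphoid priming were called lower in 4 of 14 and higher in none, with a median of −0.47 log2 units. Satb1, a chromatin organiser of lymphoid-competent stem cells, was at 57.2 and 55.4 CPM in the WT pools and 10.7 and 19.9 CPM in the IkBKO pools (log2 −1.69 ± 0.26, adjusted p = 0.00053). Ighm, the heavy chain of IgM, was at 38.8 and 26.3 CPM in the WT pools and 0 and 7.83 CPM in the IkBKO pools (log2 −2.30 ± 0.44, adjusted p = 0.0062). In replicate 1 that is 40 UMIs in WT, 14 of them in 1 cell, and 0 in IkBKO, a ratio of at most 0.165 with the 0 set to 3 UMIs. Ikzf1, the lymphoid factor Ikaros, was at 113 and 100.5 CPM in the WT pools and 49.1 and 63.8 CPM in the IkBKO pools (log2 −0.83 ± 0.18, adjusted p = 0.016), and Flt3 at 64.0 and 77.1 CPM in the WT pools and 57.6 and 28.9 CPM in the IkBKO pools (log2 −0.98 ± 0.25, adjusted p = 0.044). Satb1 and Ighm stayed called with each pool left out. Ikzf1 was not called without WT replicate 1 (adjusted p = 0.26), WT replicate 2 (0.070), IkBKO replicate 1 (0.062) or IkBKO replicate 2 (0.12). Flt3 was not called without WT replicate 1 (adjusted p = 0.077), WT replicate 2 (0.58) or IkBKO replicate 2 (0.93). The Flt3 tag medians of replicate 1, 126 in WT and 124 in IkBKO gate cells, stood close together. Flt3 RNA in that replicate was at 64.0 and 57.6 CPM, and the tag medians of the other cells were 126 and 121. The tag was not read in replicate 2, where the RNA was at 77.1 and 28.9 CPM, so it cannot be set against that difference.

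Few of the stem cell regulators were called between genotypes. Of 26 genes 2 fell and none rose, with a median of −0.11 log2 units. They were Hlf, at 601 and 847 CPM in the WT pools and 378 and 587 CPM in the IkBKO pools (log2 −0.59 ± 0.10, adjusted p = 0.00085), and the RNA-decay factor Zfp36l2 (log2 −0.35 ± 0.09, adjusted p = 0.038). Hlf was not called without WT replicate 1 (adjusted p = 0.066), WT replicate 2 (0.98) or IkBKO replicate 1 (0.82). Zfp36l2 was not called without WT replicate 1 (adjusted p = 0.68), WT replicate 2 (0.99), IkBKO replicate 1 (0.86) or IkBKO replicate 2 (0.76). Hlf in IkBKO replicate 2 lay just below WT replicate 1. Mecom was at 147 and 136 CPM in the WT pools and 137 and 138 CPM in the IkBKO pools (log2 −0.03 ± 0.15, adjusted p = 0.98). Of 29 surface genes 2 rose, Ly6a and Ifitm1, and 3 fell, with a median of −0.05. Those that fell were Cd34 at 266 and 274 CPM in the WT pools and 181 and 185 CPM in the IkBKO pools (log2 −0.56 ± 0.13, adjusted p = 0.025), the I-branching enzyme Gcnt2 (log2 −0.83 ± 0.14, adjusted p = 0.00093) and Flt3. Cd34 was not called without WT replicate 1 (adjusted p = 0.54), WT replicate 2 (0.53), IkBKO replicate 1 (0.25) or IkBKO replicate 2 (0.52). Gcnt2 was not called without WT replicate 2 (adjusted p = 0.37) or IkBKO replicate 2 (0.054). Ifitm1 was not called without WT replicate 1 (adjusted p = 1.00), WT replicate 2 (0.98), IkBKO replicate 1 (0.95) or IkBKO replicate 2 (0.78). Of 22 genes of quiescence and retinoid signalling 1 fell, Klf6, which is also among the immediate-early genes. None of 7 imprinted growth genes was called by edgeR, none had an unadjusted p under 0.05, and DESeq2 called none.

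G2/M genes, which run the last phases of the cell cycle, rose in 18 of 41 with none lower, and 33 were higher at an unadjusted p under 0.05. Their median was 0.89 log2 units. Nusap1, a spindle protein, was at 38.8 and 48.8 CPM in the WT pools and 87.5 and 120.4 CPM in the IkBKO pools (log2 1.26 ± 0.18, adjusted p = 0.00016). The ubiquitin enzyme Ube2c was at 64.0 and 70.5 CPM in the WT pools and 117 and 163 CPM in the IkBKO pools (log2 1.09 ± 0.16, adjusted p = 0.00037), the mitosis regulator Birc5 at 41.7 and 50.9 CPM in the WT pools and 68.3 and 133 CPM in the IkBKO pools (log2 1.20 ± 0.18, adjusted p = 0.00046), and topoisomerase Top2a at 127 and 169.8 CPM in the WT pools and 243 and 299 CPM in the IkBKO pools (log2 0.86 ± 0.13, adjusted p = 0.00047). The IkBKO pool of replicate 2 was the highest in each of these 4. With edgeR none of 40 was called when that pool was left out, 4 being higher and 1 lower at an unadjusted p under 0.05, with a median of 0.40, against 25 without IkBKO replicate 1, 7 without WT replicate 1 and 8 without WT replicate 2. DESeq2 called none, with 9 at an unadjusted p under 0.05. No G1/S gene of 31 was called by edgeR or DESeq2, 5 being higher at an unadjusted p under 0.05 in edgeR, with a median of 0.23.

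Most UMIs of the G2/M list came from a minority of the gate cells. The median gate cell held 8.68 and 8.55 UMIs of the list per 10000 UMIs in WT and 8.92 and 9.37 in IkBKO. Cells over 50 per 10000, a level chosen after seeing the data, were 9 of 101 (8.91%, 95% Wilson interval 4.76 to 16.1%) and 22 of 305 (7.21%, 4.81 to 10.7%) in WT. In IkBKO they were 4 of 51 (7.84%, 3.09 to 18.5%) and 32 of 194 (16.5%, 11.9 to 22.4%). The intervals overlapped in replicate 1, and in replicate 2 the IkBKO interval lay above the WT interval. These cells held 62.5 to 82.1% of the list's UMIs in their pools. Among other LSK cells the shares were 16.5% and 17.1% in WT and 26.4% and 28.0% in IkBKO. Leaving these cells out removes the list's UMIs by construction, so the list was not read again without them. Over all genes 100 were then higher and 68 lower.

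**Figure D5:**
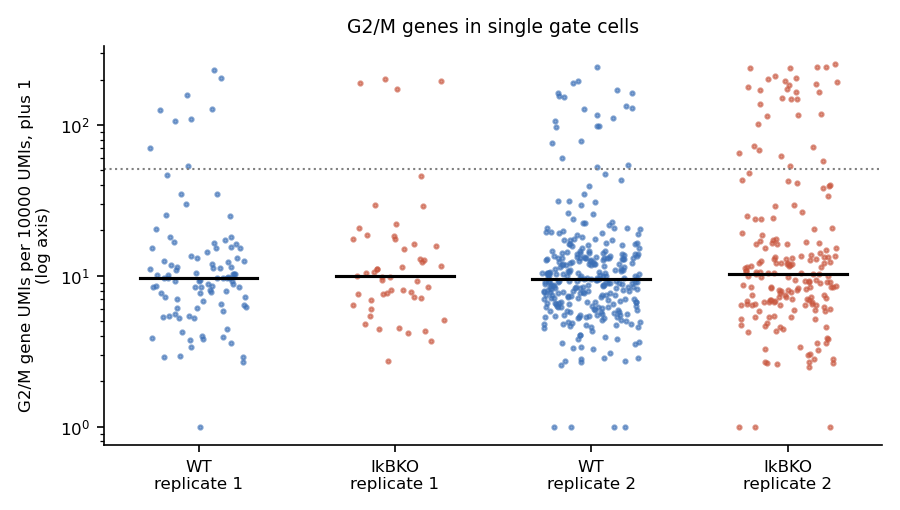
UMIs of the 42 G2/M genes per 10000 UMIs, plus 1 (log axis), in each gate cell, by genotype and replicate. Horizontal bars are medians and the dotted line is at 50 per 10000. The medians, 8.55 to 9.37 before adding 1, lie close together, and the IkBKO pool of replicate 2 has 32 of 194 cells above the line.

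Genes of other blood cells were seen in the gate at sums of up to 181 CPM. Of the defining genes, Alas2 and Slc4a1 (erythroid), Cd3e and Cd3g (T cell), Ms4a2 (mast cell) and Col3a1 (stroma) had 0 UMIs in the gate. The 6 neutrophil genes summed to 15.1 to 67.8 CPM in the gate and 167 to 1375 CPM outside. The 6 T and NK cell genes summed to 55.5 to 94.98 CPM in the gate and 162 to 201 CPM outside, and the 6 mast and basophil genes to 4.27 to 6.62 and 45.4 to 111 CPM. These 3 lists were lower in every gate pool than in the other cells of that pool. The 6 B cell genes summed to 35.7 to 53.3 CPM in the gate and 48.8 to 60.5 CPM outside, and in WT replicate 1 they were slightly higher in the gate (53.3 against 49.1 CPM). The 10 endothelial and stromal genes were higher in the gate in all 4 pools, at 7.83 to 12.8 against 4.14 to 6.17 CPM, on 6 to 20 UMIs a pool. The 6 monocyte and dendritic genes stood at 69.8 and 34.0 CPM in the WT pools and 85.4 and 85.5 CPM in the IkBKO pools in the gate and at 132 and 57.4 CPM in the WT pools and 394 and 192 CPM in the IkBKO pools outside. Ms4a6c, the 1 gene of that list that could be tested, rose and was at 31.0 and 32.8 CPM in the WT pools and 83.3 and 71.1 CPM in the IkBKO pools (log2 1.21 ± 0.21, adjusted p = 0.0015). Ms4a6c was not called without WT replicate 2 (adjusted p = 0.051). Without the 134 gate cells that held 3 or more UMIs of any of these lists it stayed called (1.23, adjusted p = 0.00023). Erythroid genes stood at 74.6 and 68.1 CPM in the WT pools and 181 and 154 CPM in the IkBKO pools of the gate, and at 124 and 90.8 CPM in the WT pools and 58.7 and 90.2 CPM in the IkBKO pools outside, so they were lower in the gate in WT and higher in IkBKO. Hbb-bt, an adult β-globin chain, made up most of the erythroid sum in the gate, at 64.0 and 62.3 CPM in the WT pools and 167 and 146 CPM in the IkBKO pools (log2 1.28 ± 0.16, adjusted p = 4.4e-05). It stayed called with each pool left out, but not without those 134 cells (0.69, adjusted p = 0.67). Hbb-bt and Ms4a6c are themselves members of these lists. Leaving those 134 cells out removes UMIs of both by construction, so neither gene is tested by it. Without those cells 187 genes were higher and 67 lower, and Gdpd3, Iigp1, Fos and Satb1 stayed called.

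Whether a genotype difference was larger in the gate than outside was tested over the 8 pools by the interaction. It was called for 50 of 14275 genes (0.35%), 26 with the higher difference in the gate (0.182%) and 24 with the lower (0.168%). DESeq2 called none, with 149 higher and 184 lower at an unadjusted p under 0.05. Of the 152 genes called in the gate, 9 were among the 50, namely Fosb, Gm43305, Hist1h2ap, Ighm, Nusap1, S100a4, Sgo1, Wfdc17 and Zgrf1. The chemokine gene Ccl4, a product of activated blood cells, had the smallest p of the genes with a higher value in the gate. It was at 58.1 and 72.2 CPM in WT gate cells, 79.0 and 86.1 CPM in IkBKO gate cells, 36.8 and 55.4 CPM in other WT cells and 8.85 and 24.7 CPM in other IkBKO cells (log2 1.61 ± 0.22, adjusted p = 4.1e-09). The IkBKO pools were thus lower outside the gate and slightly higher inside it. Klf4, a factor of monocytes, was at 6.78 and 5.74 CPM in WT gate cells, 2.13 and 0.602 CPM in IkBKO gate cells, 7.43 and 4.71 CPM in other WT cells and 17.2 and 10.6 CPM in other IkBKO cells (interaction adjusted p = 0.0035). Its gate values are 7 and 14 UMIs in WT and 1 UMI in each IkBKO pool, under the level of 3 UMIs (6.41 and 1.81 CPM), and the IkBKO to WT ratio in the gate was 0.315 (95% exact interval 0.00698 to 2.45) in replicate 1 and 0.105 (0.00248 to 0.689) in replicate 2. Cebpa, which starts the granulocyte and monocyte programme, was at 14.5 and 9.43 CPM in WT gate cells, 0 and 4.22 CPM in IkBKO gate cells, 33.0 and 14.4 CPM in other WT cells and 43.4 and 18.9 CPM in other IkBKO cells (interaction adjusted p = 0.042), on 15 and 23 UMIs in WT and 0 and 7 in IkBKO gate cells. Both were higher in IkBKO than in WT outside the gate. Myeloid priming genes in the gate were called in 1 of 14, Plac8 at 475 and 338 CPM in the WT pools and 600.0 and 499 CPM in the IkBKO pools (log2 0.46 ± 0.10, adjusted p = 0.021), with a median of 0.05. Plac8 was not called with any 1 pool left out (adjusted p = 0.23 without WT replicate 1, 0.99 without WT replicate 2, 0.91 without IkBKO replicate 1 and 0.32 without IkBKO replicate 2).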

How the data were processed

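RNA of single LSK cells was counted with a 3′ droplet kit in 2 libraries, each holding both genotypes, per the labels' protocols. The deposited matrices hold raw UMI counts per gene and barcode, not normalized. They were written by Cell Ranger 6.0.0, per the file headers, while the submitters' processing notes name Cell Ranger 7.0, Seurat 4.3.0 and the build mm10. The authors' deposited cell table holds a genotype and a pass or fail mark for every barcode, by rules not given in the sources used here. The 18029 passing barcodes were used. How doublets were treated is not given, and no doublet caller was run. Antibody tags are deposited counts too, with tags of surface proteins in replicate 1.

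The cells were chosen, and the gene lists written, with earlier results of these data known. Counts were summed per genotype, replicate and gate membership and tested in R 4.3.3 with edgeR 4.0.16 (quasi-likelihood F test, robust, TMM, filterByExpr, two-sided). The terms were library and genotype for 4 gate pools (1 residual degree of freedom), and pool and gate membership, or with genotype the interaction, for 8 pools. The genes of the rule were left out of lists and of the gate contrast. The block was used because both genotypes shared a library, and deviations of same-numbered pools from their genotype means correlated at 0.208 over 9620 genes. DESeq2 1.42.0 was an alternative, and the steps were tested on simulated data. Alternatives varied the block, tool, scaling, filter, depth, gate and pools. Fits of the genotype effect with a pool left out had no library block. Named genes were the 12 highest and 12 lowest called of at least 20 CPM (6 and 6 for the interaction), the IκB and NF-κB family, and 4 per list by p. Coordinates come from GENCODE vM21 (32158 of 32285 identifiers matched) and promoters from RefSeq on GRCm38.p6. Intervals (95%) and the floor of 3 UMIs cover counting error only. Some genes that the naming rule covers are not reported here.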

Additional observations from a re-analysis of the deposited data

Results flagged for a closer look

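The genotype difference in the gate differed from that in the other LSK cells, by the interaction test of edgeR, for 22 of the genes named by rule. Values are that difference of differences in log2 units, followed by the adjusted p, and a positive value means a higher IkBKO to WT ratio in the gate. The positive ones were Camp (3.103, 0.021), Hbb-bs (2.41, 0.0083), S100a8 (2.04, 0.0018), Zgrf1 (1.65, 0.021), Ccl4 (1.61, 4.1e-09), Ifi44 (1.60, 0.00067), Rtp4 (1.36, 0.0051), Smad7 (0.98, 0.024), Nusap1 (0.98, 0.0035), Fosb (0.94, 0.030) and Mycn (0.92, 0.029). The negative ones were Ighg1 (−7.90, 0.045), Klf4 (−3.87, 0.0035), Igkc (−2.91, 9.6e-09), Mt1 (−2.56, 2.2e-06), Ighm (−2.12, 0.00014), Cebpa (−2.11, 0.042), Cavin2 (−1.95, 0.024), Ctsh (−1.91, 1.6e-07), Ehd3 (−1.90, 0.021), Irf8 (−1.63, 0.045) and Pgam1 (−0.76, 0.045). DESeq2 called none of the 22. In 6 of them a gate pool held 3 UMIs or fewer, so the fitted size depends on few counts. In the order WT and IkBKO of replicate 1, then WT and IkBKO of replicate 2, these were Camp (7, 2, 3 and 6 UMIs), Ighg1 (0, 0, 2 and 1), Igkc (28, 1, 17 and 15), Ighm (40, 0, 64 and 13), Cebpa (15, 0, 23 and 7) and Klf4 (7, 1, 14 and 1).

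S100a8, a granule protein of neutrophils, was at 28.1 and 6.97 CPM in WT gate cells, 19.2 and 7.23 CPM in IkBKO gate cells, 623 and 458 CPM in other WT cells and 99.6 and 83.1 CPM in other IkBKO cells. Camp, another neutrophil granule gene, was at 6.78 and 1.23 CPM in WT gate cells, 4.27 and 3.61 CPM in IkBKO gate cells, 143 and 214 CPM in other WT cells and 13.8 and 31.1 CPM in other IkBKO cells. Both were lower in IkBKO outside the gate, where their levels were far higher. Igkc, the κ light chain of B cells, was at 27.1 and 6.97 CPM in WT gate cells, 2.13 and 9.03 CPM in IkBKO gate cells, 139.8 and 110.0 CPM in other WT cells and 110.2 and 595 CPM in other IkBKO cells. The part that the high levels outside the gate have in the gate values was not tested. Hbb-bs, a β-globin with a near-identical neighbour, was at 9.69 and 4.10 CPM in WT gate cells, 10.7 and 6.62 CPM in IkBKO gate cells, 44.1 and 38.2 CPM in other WT cells and 20.5 and 5.70 CPM in other IkBKO cells.

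Mt1, a metal-binding protein, was at 14.5 and 9.02 CPM in WT gate cells, 14.9 and 6.02 CPM in IkBKO gate cells, 61.4 and 12.7 CPM in other WT cells and 241 and 74.0 CPM in other IkBKO cells. Ifi44 and Rtp4, interferon-stimulated genes, were lower in both IkBKO pools outside the gate, with no common direction inside it. Ifi44 was at 16.5 and 39.0 CPM in WT gate cells, 40.6 and 27.7 CPM in IkBKO gate cells, 16.0 and 23.7 CPM in other WT cells and 5.45 and 7.38 CPM in other IkBKO cells, and Rtp4 at 30.0 and 27.1 CPM in WT gate cells, 38.4 and 24.7 CPM in IkBKO gate cells, 31.4 and 35.0 CPM in other WT cells and 14.5 and 11.6 CPM in other IkBKO cells. Irf8, a factor of monocytes and dendritic cells, was at 61.1 and 6.97 CPM in WT gate cells, 10.7 and 18.7 CPM in IkBKO gate cells, 121 and 53.6 CPM in other WT cells and 218 and 140.0 CPM in other IkBKO cells.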

How the results depend on the processing

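Direction was followed for the called genes named by rule, 53 between genotypes, 111 for the gate against other cells and 22 for the interaction, under each alternative in which they could be tested. It changed for 2 of them: Plac8 between genotypes at 4 or more marker genes (−0.031) and Ebf1, a B cell factor, in the gate against other cells under the same limits (0.10). Of the genotype counts of 101 higher and 51 lower, fitting with no replicate block, although both genotypes of a replicate shared a library, left 83 and 30. DESeq2, which gave an adjusted p to 5144 of 9620 genes, called 10 and 9. A gate of 2 or more marker genes gave 354 and 214, of 4 or more 54 and 19, and no limits on Mpo, Dntt, Pf4 and Car1 178 and 86. Without cells holding UMIs of other lineages there were 187 higher genes. Fits with 1 pool left out also had no replicate block. Leaving out 1 pool gave 38 to 112 higher genes (52 without WT replicate 1, 38 without WT replicate 2, 112 without IkBKO replicate 1 and 38 without IkBKO replicate 2). It gave 14 to 44 lower genes (15, 24, 44 and 14 in the same order). RLE scaling, no filter on low counts, thinning to 5000 UMIs and leaving out cells high in G2/M genes, the last chosen after seeing the data, kept both counts within 1.5 times. For the gate against other cells, thinning left 1154 higher genes. Leaving out a replicate gave 635 to 1254 higher and 1259 to 1529 lower, the smaller count each time without replicate 2. For the interaction, DESeq2 called 0 and 0 (149 and 184 at an unadjusted p under 0.05), thinning left 3 higher and 12 lower, and comparing with other cells under the same limits gave 38 lower. The IkBKO to WT ratio of gate shares in replicate 1 was 0.289 with 4 or more marker genes, where the IkBKO gate held 8 cells. The cause of these changes was not tested. Of the 53 called genes named by rule, 43 stayed called without the block, 10 in DESeq2 and 16 with each pool left out. The smallest pool, 468375 UMIs from 51 cells, limits what can be seen.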

Other observations

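Some mitochondrially encoded RNAs were among the genes that fell in IkBKO gate cells, a group picked after its values were seen. Only its called members are described here, so nothing is said of the mitochondrial RNAs as a whole. Over all 9620 genes tested, 51 (0.53%) were called lower. The 6 called were mt-Co1, mt-Co2, mt-Co3, mt-Atp6, mt-Nd2 and mt-Nd5, all parts of the respiratory chain. mt-Co1 was at 7608 and 7384 CPM in the WT pools and 5622 and 5856 CPM in the IkBKO pools (log2 −0.38 ± 0.05, adjusted p = 3.2e-05), and the 6 folds ran from −0.50 to −0.23. None of the 6 was called with any 1 pool left out or without the library block. For mt-Co1 the adjusted p was 0.81 without WT replicate 1, 0.52 without WT replicate 2, 0.57 without IkBKO replicate 1 and 0.68 without IkBKO replicate 2. Among the genes that fell were also Msmo1 and Idi1, enzymes of sterol synthesis. Msmo1 was at 75.6 and 42.2 CPM in the WT pools and 23.5 and 25.3 CPM in the IkBKO pools (log2 −1.04 ± 0.25, adjusted p = 0.032), and Idi1 at 73.7 and 54.1 CPM in the WT pools and 42.7 and 28.9 CPM in the IkBKO pools (log2 −0.87 ± 0.22, adjusted p = 0.044). Msmo1 was not called without WT replicate 1 (adjusted p = 0.68) or IkBKO replicate 2 (0.32). Idi1 was not called without WT replicate 1 (adjusted p = 0.70), WT replicate 2 (0.051) or IkBKO replicate 2 (0.85).

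Inflammatory caspases Casp1, Casp4 and Casp12, also picked after their values were seen, were higher. Casp4, a sensor of bacterial lipopolysaccharide, was at 26.2 and 20.1 CPM in the WT pools and 57.6 and 60.8 CPM in the IkBKO pools (log2 1.44 ± 0.23, adjusted p = 0.00088). Casp4 was not called without WT replicate 2 (adjusted p = 0.16) or IkBKO replicate 2 (0.068). Casp1 was not called without WT replicate 1 (adjusted p = 0.055), WT replicate 2 (0.41) or IkBKO replicate 2 (0.22). Casp12 was not called without WT replicate 2 (adjusted p = 0.18) or IkBKO replicate 2 (0.20). Of 13 genes known to rise in aged stem cells 2 were called higher, Nupr1 and Plscr2, with a median of 0.50. Plscr2 rests on 1 and 7 UMIs in WT, and was not called without WT replicate 1 (adjusted p = 0.052), WT replicate 2 (0.078) or IkBKO replicate 1 (0.33). MHC class II genes had a median of 0.98 over 12 with none called by edgeR, 3 higher and 1 lower at an unadjusted p under 0.05, and none called by DESeq2. Their invariant chain Cd74 spread widely within a genotype, at 437 and 87.8 CPM in the WT pools and 581 and 431 CPM in the IkBKO pools. Rian, an imprinted noncoding RNA next to Meg3, was at 14.5, 10.7, 8.20 and 4.82 CPM in the gate against 0.469, 0.0481, 0.453 and 0.168 CPM in the other cells, in the order used for the gate against other cells.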
